A study of Mus musculus with 6 samples.

Results

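The molecular circadian clock was examined in mouse mammary stroma through 10 core clock genes, Per1, Per2, Per3, Cry1, Cry2, Arntl, Clock, Nr1d1, Dbp and Tef. They were found as the probe sets whose deposited gene symbol is exactly 1 of these names, which gave 26 of the 45037 probe sets tested, and each of the 10 genes had at least 1. A single further probe set that pairs Clock with a second symbol was left out. Cleared mammary fat pads were taken from Rarb -/- mice, which lack retinoic acid receptor beta (3 arrays, called Rarb-null), and from Rarb +/+ littermates (3 arrays, called wild-type), all 4 weeks old. The labels of all 6 samples also mention ErbB2 without saying whether the mice carried a transgene, and how Rarb was disrupted, how many mice stand behind an array and at what time of day tissue was taken are not given in the sources used here. P-values therefore measure the spread between these arrays.

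The clock is a feedback loop that runs in nearly every cell. CLOCK and ARNTL (also called BMAL1) pair up and switch on genes that carry an E-box, among them the Per and Cry genes, whose proteins then enter the nucleus and block the pair. A second loop joins NR1D1 (REV-ERB alpha), itself an E-box target, which represses Arntl through ROR elements, while DBP and TEF activate genes through D-boxes. In a rhythmic tissue Arntl therefore peaks roughly when Dbp, Nr1d1 and the Per genes are low, and adipose tissue and mammary gland are both known to keep such rhythms.

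Values are log2 signals after RMA, as deposited, so that 1 unit is a 2-fold difference in signal. The brightest probe set of a gene, by its mean over the 6 arrays, is called its main probe set. Rarb itself read 6.50, 6.61 and 7.41 on Rarb-null arrays and 6.95, 6.01 and 6.65 on wild-type arrays, and since the position of its probe set relative to the deletion is unknown, it does not check the labels. Fibroblast markers (7 of 7 genes) had mean signals from 11.23 to 14.55 and adipocyte markers (10 of 10) from 5.96 to 14.87, with a median of 13.33. Mammary epithelial markers (10 of 10) were also bright, from 10.08 to 13.23, although the pads are labelled as cleared. Arrays of both genotypes were split by proliferation: cell cycle genes (13 of 14 measured) averaged 1.31, 1.33 and -1.55 log2 from their 6-array means in Rarb-null replicates 1 to 3, against -1.18, 1.41 and -1.32 in wild-type replicates 1 to 3. In bulk tissue, fewer cells of a type and less RNA per cell cannot be told apart.

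No clock gene differed between Rarb-null and wild-type stroma beyond the spread of the arrays. In limma with Benjamini-Hochberg adjustment over all probe sets, 0 of the 26 clock probe sets passed an adjusted p of 0.05, where 0.0% of all probe sets did, and their adjusted p ran from 0.911 to 0.998. At an unadjusted p under 0.05 there were 0 of 26, against 5.22% of all probe sets. The genotypes did not overlap at 1 of the 26, a Clock probe set, against 10.4% of all probe sets. A higher mean on Rarb-null arrays was found for 15 of the 26 probe sets, against 50.0% of all, and for 6 of the 10 genes at the main probe set, against 47.1% of 20519 genes. The median difference, Rarb-null minus wild type, was 0.10 log2 over the 10 genes and -0.01 log2 over all genes. For 25 of the 26 probe sets the 95% interval of the difference excluded a 2-fold change in signal in either direction. The exception was the main probe set of Per2, and the interval of Per1 reached -0.999 log2. At the 10 probe sets with a mean under 7, RMA compresses differences, so the interval says less about the transcript.

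**Figure D1:**
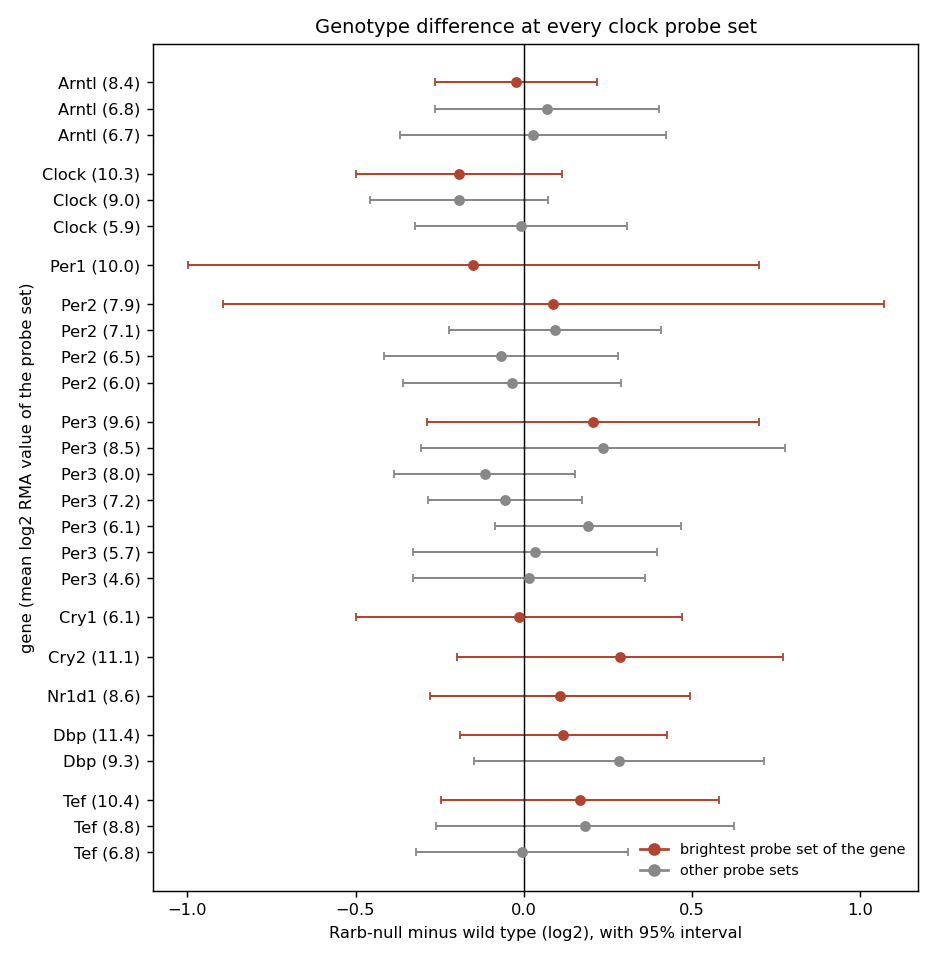
Difference between Rarb-null and wild-type arrays (x axis, log2) for each of the 26 clock probe sets, with its 95% interval from limma; red marks the main probe set of a gene, grey the others, and the number after each name is the mean log2 value of that probe set. Every interval spans 0, and those of Per1 and Per2 at the main probe sets are the widest.

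Arntl varied least over the arrays of the 10 genes at the main probe set. Arntl, whose product is the obligate partner of CLOCK, read 8.40, 8.27 and 8.40 on Rarb-null arrays and 8.31, 8.46 and 8.36 on wild-type arrays at probe set 1425099_a_at. All 6 values lay within 0.19 log2, and the genotypes overlapped, with a Rarb-null array lowest and a wild-type array highest. Mean values were 8.36 ± 0.07 and 8.38 ± 0.08 (SD, n = 3 each). They differed by -0.02 log2 (95% interval -0.26 to 0.22). Its range over the arrays was lower than that of all but 2.4% of the 1000 genes nearest to it in signal. Its other 2 probe sets were dimmer, with means of 6.76 and 6.71, and varied more, with ranges of 0.45 and 0.63 log2. Both were lowest on wild-type replicate 1. Clock, which encodes the partner with acetyltransferase activity, read 10.23, 10.18 and 10.32 on Rarb-null arrays and 10.60, 10.21 and 10.50 on wild-type arrays at probe set 1418659_at. Wild-type replicates 1 and 3 were above all Rarb-null arrays, while wild-type replicate 2 lay among them. The difference was -0.19 log2 (95% interval -0.50 to 0.11, adjusted p = 0.918 in limma). The second Clock probe set, 1435775_at, is the one without overlap, at 8.87, 8.96 and 8.95 on Rarb-null arrays and 9.11, 8.98 and 9.26 on wild-type arrays. Its difference was also -0.19 log2, with an adjusted p of 0.911, and a p-value of 0.119 in the authors' deposited table. The remaining, dim Clock probe set differed by -0.01 log2.

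The Per genes encode repressors of the loop, and Per1 and Per2 had the widest ranges of the 10 genes. For all 3 Per genes both the highest and the lowest array were wild-type at the main probe set. Per1, which responds to glucocorticoids as well as to the clock, read 9.57, 9.76 and 10.31 on Rarb-null arrays and 10.82, 9.45 and 9.82 on wild-type arrays at its single probe set, 1449851_at. Wild-type replicate 1 was the highest array and wild-type replicate 2 the lowest, so that every Rarb-null value fell between wild-type values. Mean values were 9.88 ± 0.39 and 10.03 ± 0.71 (SD, n = 3 each), and their difference was -0.15 log2 (-0.999 to 0.699). Per2 read 8.07, 7.73 and 8.18 on Rarb-null arrays and 8.94, 7.56 and 7.21 on wild-type arrays at probe set 1417602_at. Again the 3 Rarb-null arrays lay inside the span of the wild-type arrays, whose highest and lowest values were 1.72 log2 apart. The difference was 0.09 log2, with a 95% interval from -0.89 to 1.07. Per3, a further paralogue, read 9.73, 9.61 and 9.75 on Rarb-null arrays and 9.92, 9.48 and 9.06 on wild-type arrays at probe set 1421087_at. Its SD was 0.07 among Rarb-null and 0.43 among wild-type arrays, and the difference was 0.21 log2 (-0.29 to 0.70). The ranges of Per1 and Per2 exceeded those of 95.2% and 94.6% of the 1000 genes nearest to each in signal, and that of Per3 exceeded 78.4%.

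Probe sets of the same Per gene did not all follow the main one. The 3 other Per2 probe sets had means of 7.07, 6.50 and 6.04 and ranges of 0.42, 0.41 and 0.39 log2, and 1 of the 3 was highest on wild-type replicate 1. Of the 6 other Per3 probe sets, 4 had a difference of the same sign as the main one. The second brightest, 1458176_at, read 8.91, 8.59 and 8.33 on Rarb-null arrays and 8.78, 8.35 and 7.997 on wild-type arrays. Like the main Per3 probe set it was lowest on wild-type replicate 3. The 5 remaining Per3 probe sets had means between 4.62 and 8.04 and ranges of at most 0.49 log2. Of the 26 clock probe sets, 10 had a mean under 7, where RMA compresses differences and no detection call was used here to tell signal from background.

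Cry1 and Cry2, the cryptochromes that carry most of the repressor activity, were measured by 1 probe set each. Cry1 was dim, at 6.20, 6.19 and 5.87 on Rarb-null arrays and 6.39, 6.24 and 5.67 on wild-type arrays (1433733_a_at). Replicate 3 was the lowest array in both genotypes, and the difference was -0.01 log2 (-0.50 to 0.47). Cry2 read 11.14, 11.23 and 11.44 on Rarb-null arrays and 11.21, 10.53 and 11.22 on wild-type arrays (1426383_at). Wild-type replicate 2 stood apart below the other 5 arrays. The difference of 0.29 log2 was the largest of the 10 genes at the main probe set, though its interval ran from -0.20 to 0.77 (adjusted p = 0.925 in limma).

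Nr1d1, the repressor of Arntl, read 8.43, 8.87 and 8.56 on Rarb-null arrays and 8.61, 8.26 and 8.66 on wild-type arrays (1426464_at). Rarb-null replicate 2 was the highest and wild-type replicate 2 the lowest array, and the difference was 0.11 log2 (-0.28 to 0.50). Dbp, an output factor with one of the steepest daily rhythms among clock targets, read 11.30, 11.48 and 11.58 on Rarb-null arrays and 11.31, 11.51 and 11.19 on wild-type arrays (1438211_s_at). The values spanned 0.39 log2 with no separation of the genotypes, and the difference was 0.12 log2 (-0.19 to 0.42). The other Dbp probe set, 1418174_at, had a wider range of 0.76 log2, at 9.15, 9.56 and 9.68 on Rarb-null arrays and 9.40, 9.21 and 8.92 on wild-type arrays. Both Dbp probe sets were highest on Rarb-null replicate 3 and lowest on wild-type replicate 3. Tef, a factor of the same family as Dbp, read 10.29, 10.42 and 10.60 on Rarb-null arrays and 10.61, 10.01 and 10.18 on wild-type arrays (1424175_at). Wild-type replicate 1 and Rarb-null replicate 3 were nearly equal at the top, wild-type replicate 2 was lowest on all 3 Tef probe sets, and the difference was 0.17 log2 (-0.25 to 0.58).

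**Figure D2:**
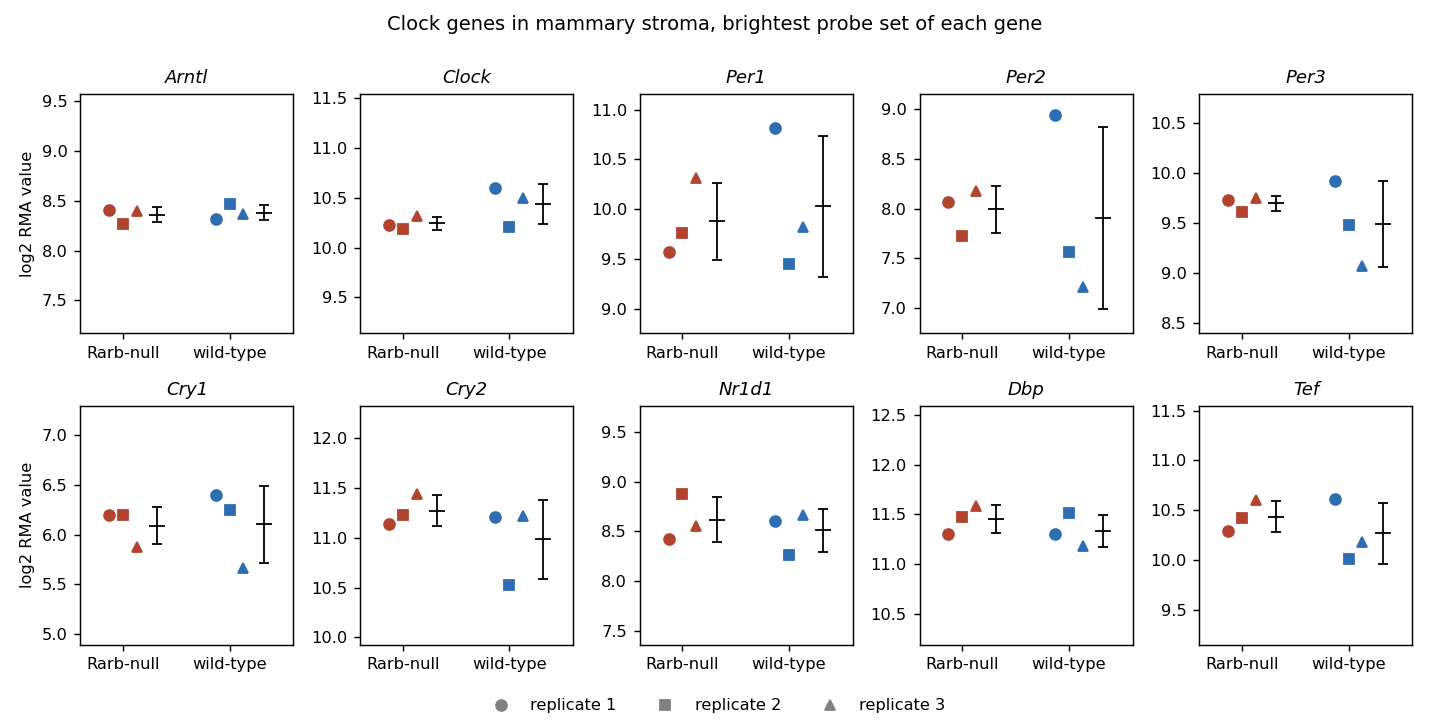
Log2 RMA value (y axis, each panel spanning 2.4 log2 units) of the main probe set of each clock gene on the 3 Rarb-null arrays (red) and the 3 wild-type arrays (blue); marker shape gives the replicate, and bars are the mean ± SD. Arntl is nearly flat, while Per1, Per2 and Per3 spread most among wild-type arrays.

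At the main probe sets, most clock genes varied more among wild-type than among Rarb-null arrays. The SD was larger on wild-type arrays for 9 of the 10 genes at the main probe set, Nr1d1 being the exception at 0.23 among Rarb-null and 0.22 among wild-type arrays. Over all genes the wild-type SD was the larger for 59.4%. Among the further probe sets, the Rarb-null SD was the larger at Dbp 1418174_at, Per2 1445892_at, Per3 1460662_at and Tef 1450184_s_at. At the rest the wild-type SD was the larger. With 3 arrays a group, this difference in spread was not tested. Wild-type replicate 1 was the highest array for 6 of the 10 genes (Per1, Per2, Per3, Cry1, Clock and Tef). Wild-type replicate 2 was the lowest for 4 (Per1, Cry2, Nr1d1 and Tef) and wild-type replicate 3 for the other 4 in which a wild-type array was lowest (Per2, Per3, Cry1 and Dbp). Rarb-null replicate 1 was neither highest nor lowest for any gene. Without wild-type replicate 1, the difference of Per1 became 0.25 log2 and that of Per2 0.60 log2, with no call.

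**Figure D3:**
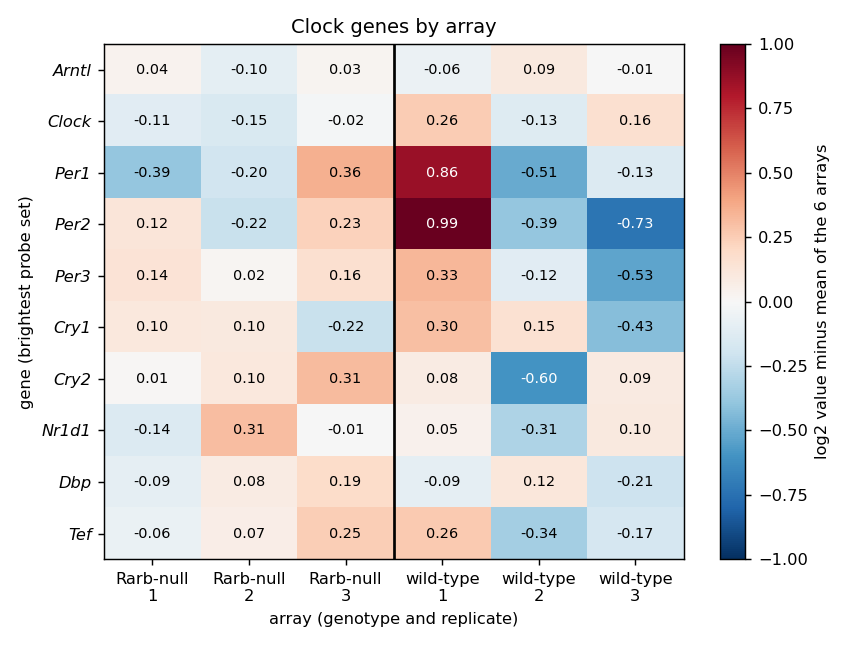
Deviation of each clock gene (rows, main probe set) from its mean over the 6 arrays (log2, colour and printed value) on each array (columns). Wild-type replicate 1 is 0.99 log2 above the mean for Per2 and 0.86 for Per1, and wild-type replicate 3 is 0.73 below it for Per2.

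**Figure D4:**
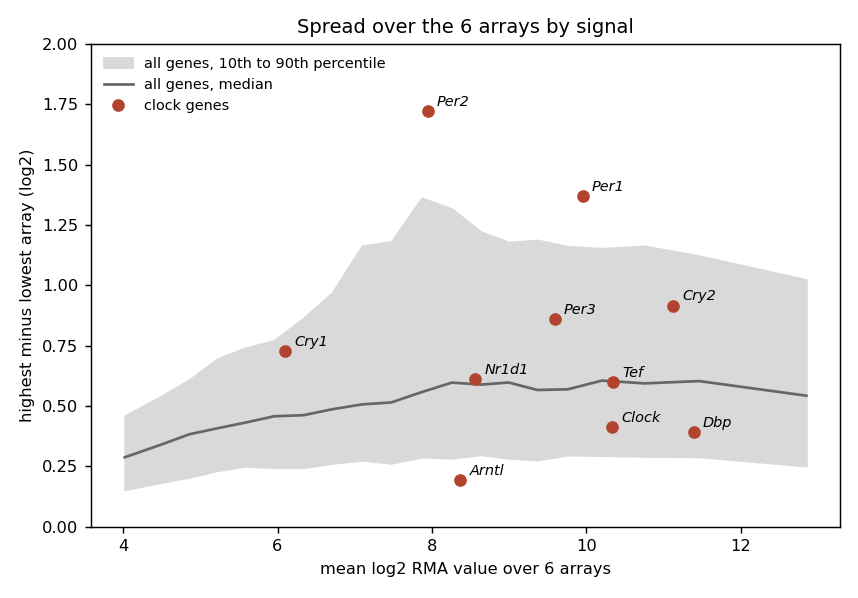
Range over the 6 arrays (highest minus lowest log2 value, y axis) against mean log2 signal (x axis) for the clock genes (red) and for all genes in 20 bins of signal (line, median; grey band, 10th to 90th percentile). Per1 and Per2 lie above the band and Arntl below it.

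No pair of genes from opposite arms of the clock passed the test over the arrays. Arntl and Clock were each set against Per1, Per2, Per3, Dbp and Nr1d1. Clock is known to be only weakly rhythmic in many tissues, so its 5 pairs bear less on a difference in phase than those of Arntl. Of these 10 pairs of genes, 6 had a negative and 4 a positive Pearson correlation over the 6 arrays, and 0 passed an adjusted p of 0.05 (exact permutation test over 720 pairings, two-sided, adjusted over the 10 pairs), with 1 pair at an unadjusted p under 0.05. That pair was Arntl and its known repressor Nr1d1, with r = -0.93 (exact permutation p = 0.0125, adjusted p = 0.125) and Spearman rho = -0.94 (exact permutation p = 0.0167, adjusted p = 0.167). Wild-type replicate 2 had the highest Arntl and the lowest Nr1d1, and Rarb-null replicate 2 the lowest Arntl and the highest Nr1d1. Without these 2 arrays, which lie farthest from the Arntl median, r was -0.65, and within each genotype it was -0.97 among Rarb-null and -0.90 among wild-type arrays, over 3 arrays each. With any 1 array left out it ran from -0.98 to -0.87. It depended on the processing, at r = -0.41 after a second quantile normalization (exact permutation, adjusted p = 0.789) and r = -0.14 when the probe sets of each gene were averaged (exact permutation, adjusted p = 0.815). The relation spans only 0.19 log2 of Arntl signal, and the 2 dimmer Arntl probe sets had r = 0.19 and -0.18 with Nr1d1, given as a description.

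The remaining pairs went both ways. Arntl had negative correlations with Per1 (r = -0.45, rho = -0.60), Per2 (r = -0.27, rho = -0.20) and Per3 (r = -0.19, rho = -0.20), and a positive one with Dbp (r = 0.21, rho = 0.20), all with an adjusted exact permutation p of 0.810 for r and 0.793 for rho. The dimmer Arntl probe sets, 1446544_at and 1457740_at, had r = -0.57 and -0.76 with Per1, -0.92 and -0.84 with Per2, and -0.87 and -0.60 with Per3, given with no test. With the probe sets of each gene averaged, all 5 Arntl pairs had a negative r, at -0.72 with both Per1 and Per2 (exact permutation, adjusted p = 0.521 for each). Clock and Per1 had a positive correlation, with r = 0.75 (exact permutation p = 0.0861, adjusted p = 0.431) and rho = 0.77 (exact permutation p = 0.103, adjusted p = 0.514). Without wild-type replicates 1 and 3, the 2 arrays farthest from the Clock median, r was 0.82, but without wild-type replicate 1 alone it was 0.38, and it was 0.83 among Rarb-null and 0.85 among wild-type arrays. Clock against Per2 gave r = 0.39 (rho = 0.37), against Per3 -0.03 (rho = 0.37), against Dbp -0.60 (rho = -0.37) and against Nr1d1 0.20 (rho = 0.09), and the adjusted exact permutation p of r was at least 0.810. Those of Clock with Per3, Dbp and Nr1d1 changed sign without wild-type replicates 1 and 3, at r = 0.65, 0.42 and -0.16.

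**Figure D5:**
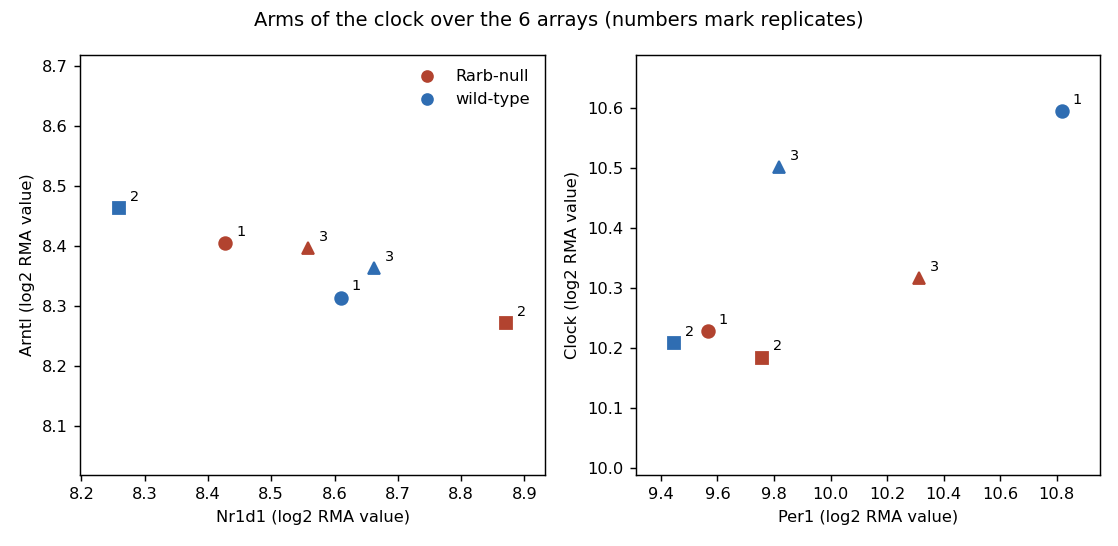
Arntl against Nr1d1 (left) and Clock against Per1 (right), log2 RMA values of the main probe sets on the 3 Rarb-null (red) and 3 wild-type arrays (blue), with numbers and marker shapes for replicates; both y axes span 0.7 log2. Arntl is lower where Nr1d1 is higher, with r = -0.93, while Clock and Per1 are both highest on wild-type replicate 1.

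Within the repressing and output arm, 7 of 10 pairs of genes had a positive r, and r ran from -0.14 to 0.91. Averaged over Per1, Per2, Per3, Dbp and Nr1d1, the deviation from the 6-array mean was -0.07, -0.0015 and 0.19 log2 in Rarb-null replicates 1 to 3. In wild-type replicates 1 to 3 it was 0.43, -0.24 and -0.30 log2. For Arntl and Clock together it was -0.04, -0.13 and 0.0024 log2 on the Rarb-null arrays and 0.10, -0.02 and 0.08 log2 on the wild-type arrays. Wild-type replicate 1 was thus above the mean in both averages. In the average of Arntl and Clock this came from Clock, at 0.26 log2, while Arntl was at -0.055 log2. Among all 45 pairs of the 10 genes, computed after the values were seen, 28 had a positive r. At an unadjusted exact permutation p under 0.05 there were 4, and 0 passed an adjusted p of 0.05. No single pair could have passed alone, since the smallest possible p for r, 0.00139, is too large after adjustment over 45 pairs. Per2 and Per3 ranked the 6 arrays in the same order, with rho = 1 (exact permutation p = 0.00278, adjusted p = 0.125) and r = 0.91 (exact permutation p = 0.0153, adjusted p = 0.344), and r was 0.97 without wild-type replicates 1 and 3. Per1 and Tef had r = 0.85 (exact permutation p = 0.0333, adjusted p = 0.375) and rho = 0.83 (exact permutation p = 0.0583, adjusted p = 0.525), with r = 0.76 without wild-type replicates 1 and 2. Cry2 and Tef had r = 0.80 (exact permutation p = 0.0278, adjusted p = 0.375) but rho = 0.54 (exact permutation p = 0.297, adjusted p = 0.889).

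Promoter windows that hold a motif of the loops described above are shown for 6 of the clock genes. The windows are RefSeq sequences on GRCm38.p6, from 250 bases before to 50 bases after an annotated start, and 9 of the 10 genes had 14 windows between them, Per2 being the gene without one. The E-box was searched as CACGTG, which reads the same on both strands, and was found in 7.15% of 32851 promoter windows of all genes. Among the clock genes it was present in 1 of 2 Per1 windows, in both Tef windows and in the single Cry1 window, and in no window of Arntl, Clock, Cry2, Dbp, Nr1d1 or Per3. Capitals mark the E-box in Per1 (chr11:69098699-69098998, plus strand), Tef (chr15:81802423-81802722, plus strand) and Cry1 (chr10:85185005-85185304, minus strand), where its first base lies at -166, -127 and -60 from the start.
Per1: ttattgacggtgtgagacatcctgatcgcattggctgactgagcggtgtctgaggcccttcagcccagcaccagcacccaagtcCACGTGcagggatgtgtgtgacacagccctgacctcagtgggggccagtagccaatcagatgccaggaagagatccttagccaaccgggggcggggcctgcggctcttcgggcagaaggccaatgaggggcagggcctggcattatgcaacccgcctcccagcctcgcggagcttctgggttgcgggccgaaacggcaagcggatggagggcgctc
Tef: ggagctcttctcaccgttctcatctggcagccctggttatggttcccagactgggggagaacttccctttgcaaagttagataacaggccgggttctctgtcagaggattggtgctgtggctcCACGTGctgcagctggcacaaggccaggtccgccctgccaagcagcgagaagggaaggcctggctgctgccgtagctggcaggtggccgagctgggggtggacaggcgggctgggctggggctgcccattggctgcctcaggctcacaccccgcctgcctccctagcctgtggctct
Cry1: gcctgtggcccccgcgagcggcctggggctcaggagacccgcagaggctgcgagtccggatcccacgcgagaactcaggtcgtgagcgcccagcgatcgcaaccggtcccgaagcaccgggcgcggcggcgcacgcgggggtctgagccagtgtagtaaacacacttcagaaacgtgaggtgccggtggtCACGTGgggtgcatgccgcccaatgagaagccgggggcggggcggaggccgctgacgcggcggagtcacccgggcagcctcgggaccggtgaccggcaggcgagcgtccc

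The D-box, to which DBP and TEF bind, was searched as TTATGTAA and, for the other strand, TTACATAA, and was found in 0.938% of all windows. Of the clock genes with a window, Per3 alone held these exact letters, with 2 copies starting at -205 and -158 (chr4:151044616-151044915, minus strand). Variants of the D-box letters were not searched, so the other windows may hold them. The related E-box form CACGTT (on the other strand it reads AACGTG) was found in 4.68% of all windows and in those of Cry1, Cry2 and Nr1d1. In Nr1d1 it starts at -28 (chr11:98775328-98775627, minus strand). The core of ROR elements, to which NR1D1 binds, was searched as AGGTCA (on the other strand it reads TGACCT), which 16.3% of all windows hold, and occurred in 1 window each of Arntl, Clock and Per1. In Arntl its first base lies at 32 after the start (chr7:113207261-113207560, plus strand). Capitals mark the D-boxes in Per3, the E-box form in Nr1d1 and the ROR core in Arntl. None of these motifs overlaps another in the windows printed. A match is a description of the letters and no evidence of binding in this tissue.
Per3: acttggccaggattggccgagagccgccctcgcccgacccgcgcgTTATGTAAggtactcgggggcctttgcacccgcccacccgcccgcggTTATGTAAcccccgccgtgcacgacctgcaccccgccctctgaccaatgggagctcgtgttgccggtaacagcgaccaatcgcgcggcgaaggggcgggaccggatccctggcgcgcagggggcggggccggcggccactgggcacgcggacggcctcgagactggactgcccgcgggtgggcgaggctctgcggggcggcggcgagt
Nr1d1: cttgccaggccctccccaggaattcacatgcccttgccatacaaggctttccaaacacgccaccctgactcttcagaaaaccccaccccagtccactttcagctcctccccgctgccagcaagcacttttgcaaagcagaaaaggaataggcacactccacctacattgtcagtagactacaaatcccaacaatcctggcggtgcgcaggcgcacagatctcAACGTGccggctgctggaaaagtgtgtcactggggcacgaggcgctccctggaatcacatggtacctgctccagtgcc
Arntl: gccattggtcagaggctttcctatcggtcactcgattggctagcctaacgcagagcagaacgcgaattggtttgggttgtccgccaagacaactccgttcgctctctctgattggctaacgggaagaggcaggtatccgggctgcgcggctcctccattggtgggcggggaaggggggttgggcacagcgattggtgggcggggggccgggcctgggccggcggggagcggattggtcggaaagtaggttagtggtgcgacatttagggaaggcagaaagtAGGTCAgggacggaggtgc

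Other clock transcription factors gave no call either. Of 11 genes measured, 7 were higher and 4 lower on average in Rarb-null stroma. Their median difference was 0.08 log2, against -0.01 log2 over all genes, and 0 passed the adjusted threshold. Nfil3, the repressor that competes with DBP at D-boxes, was the 1 with an unadjusted p under 0.05, a share of genes that is 5.3% overall. It read 6.91, 6.52 and 6.75 on Rarb-null arrays and 7.66, 6.81 and 7.60 on wild-type arrays, so that wild-type replicate 2 lay within the Rarb-null values. The difference was -0.63 log2 (95% interval -1.19 to -0.07, adjusted p = 0.908 in limma). Nr1d2, the paralogue of Nr1d1, differed by 0.18 log2 and Hlf, another member of the Dbp family, by 0.19 log2, both with overlap.

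Among 10 kinases and other partners that set the stability or activity of clock proteins, 6 had a higher and 4 a lower mean, 0 passed, and 2 did not overlap between genotypes, against 10.6% of all genes. Gsk3b, a kinase that phosphorylates several clock proteins, read 12.57, 12.74 and 12.67 on Rarb-null arrays and 12.27, 12.09 and 12.28 on wild-type arrays. All 3 Rarb-null arrays were above all wild-type arrays, with a difference of 0.45 log2 (0.19 to 0.70), an unadjusted p of 0.00441 and an adjusted p of 0.908 in limma, and 3 of the 5 further Gsk3b probe sets shared that sign. Csnk1e, a casein kinase that acts on PER proteins, differed by -0.33 log2, but neither of its 2 other probe sets had that sign. Btrc, part of the ligase that degrades PER, differed by -0.22 log2 without overlap, and 1 of its 5 other probe sets had that sign. Of 6 clock output genes 3 had a higher mean and 3 a lower one. Nampt, the rate-limiting enzyme of NAD salvage, read 12.02, 11.79 and 12.38 on Rarb-null arrays and 12.01, 11.51 and 11.36 on wild-type arrays, and differed by 0.44 log2 (-0.07 to 0.95). Wee1, a mitotic kinase gene with E-boxes in its promoter, differed by 0.54 log2 (-0.14 to 1.23) and Ppard by -0.20 log2 (-0.49 to 0.10).

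Per1 is also a target of the glucocorticoid receptor, so other genes of that response were set beside it. Averaged over 10 such genes, the deviation from the 6-array mean was -0.27, -0.20 and 0.15 log2 in Rarb-null replicates 1 to 3. In wild-type replicates 1 to 3 it was 0.41, -0.15 and 0.07 log2. Per1 deviated by -0.39, -0.20 and 0.36 log2 on the Rarb-null arrays and 0.86, -0.51 and -0.13 log2 on the wild-type arrays. The list average was thus highest on wild-type replicate 1, as Per1 was, although its genes differed. Zbtb16, Fkbp5, Tsc22d3 and Cdkn1a were highest on wild-type replicate 1. Mt1, Mt2 and Klf9 were highest on wild-type replicate 3, Errfi1 and Pdk4 on Rarb-null replicate 3, and Sgk1 on wild-type replicate 2. Sgk1 was lowest on wild-type replicate 1, at 10.52. Fkbp5, Tsc22d3, Cdkn1a, Klf9, Errfi1, Pdk4 and Sgk1 were named after their values were seen. Fibroblast markers averaged 0.11, 0.18 and -0.11 log2 on the Rarb-null arrays and -0.29, 0.16 and -0.05 log2 on the wild-type arrays, and were lowest where Per1 and Clock were highest. Adipocyte markers averaged -0.16, -0.03 and -0.09 log2 on the Rarb-null arrays and 0.29, -0.27 and 0.27 log2 on the wild-type arrays, and were highest on the arrays with the highest Clock, wild-type replicates 1 and 3. Of the marker lists, these had the strongest r with Clock, at -0.89 for fibroblasts and 0.91 for adipocytes, with mammary epithelium at -0.85. They are thus extremes among the lists and are given as a description. Not every gene followed its list average, with Dpt and Cfd, named after their values were seen, among those that did not. The part of the hormone response, of these cell types and of the cell cycle genes in the Per1 and Clock values was not tested. Of the 10 glucocorticoid response genes, 3 had a higher and 7 a lower mean on Rarb-null arrays, and 0 passed. The genotypes did not overlap for 3 of them, against 10.6% of all genes. These were Mt1 and Mt2, which encode metallothioneins, at -0.47 log2 each, and Zbtb16, a zinc finger gene, at -1.01 log2. Zbtb16 read 9.28, 9.06 and 9.22 on Rarb-null arrays and 11.13, 9.29 and 10.17 on wild-type arrays.

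Genes with the pattern most like Arntl and Dbp were sought among 6667 genes in the upper 60% of signal with a range of at least 0.5 log2, over the 6 arrays. Most like Arntl were Cd55, Prss23, Clu and Smpd3, with r from 0.94 to 0.97, and most opposite were Pbxip1, Gabarapl1, Brap and Aqp1, with r from -0.98 to -0.96. For Dbp the most alike were Agps, Dclre1c, Ppfibp2 and Slc66a2, with r from 0.96 to 0.98, and the most opposite Gimap1, Shank3, Dhrs4 and Tcf15, with r of -0.98. These are the extremes of 6667 values over 6 arrays and are given as a description. Of the 6667 genes, 0.285% had an r beyond 0.9 in either direction with Arntl and 1.23% with Dbp. The 10 clock genes themselves were left out of the 6667.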

How the data were processed

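Total RNA from cleared mammary fat pads was measured on 6 arrays. The authors deposited log2 values made with RMA, per the submitters' processing notes (no version given). RMA equalises the distribution of signals between arrays and compresses differences of dim probe sets. The authors' second deposited table holds group means and fold changes on the log2 scale, a SAM d-score (a score of the group difference) and a p-value per probe set, per the file headers. It gave the gene symbols, older ones being updated through RefSeq synonyms (GRCm38.p6). The array design and scanner are not given in the sources used here, and the number of arrays limits the precision.

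All 45037 non-control probe sets were compared between genotypes with limma 3.58.1 (lmFit, eBayes) in R 4.3.3, two-sided. P-values were adjusted over all of them by Benjamini-Hochberg, with a threshold of 0.05. This fit was checked on simulated data. Correlations were tested by exact permutation of the pairings. Text names all 10 genes, up to 3 genes of each further list by smallest p, and the 4 genes most like and most opposite to Arntl and to Dbp. Further genes named after their values were seen are marked as such. The 10 genes, the lists and the tests were chosen with earlier results of these data known. The alternatives tried were median centring, a second quantile normalization, leaving out the dimmest 40% of probe sets, a trended robust prior, averaging the probe sets of each gene, the replicate number as a block, deviations from the genotype mean, and leaving out arrays. Figures were drawn with matplotlib 3.10.9 in Python 3.11.15.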

Additional observations from a re-analysis of the deposited data

How the results depend on the processing

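The count of clock probe sets past the threshold was 0 under every alternative run. At an unadjusted p under 0.05 it was 0, but 3 without wild-type replicate 1, where 6.26% of all probe sets had one, 1 without Rarb-null replicate 1 (4.52%) and 1 without wild-type replicate 2 (9.81%). The number of calls over all probe sets was 0 to 1 with single arrays left out, the 1 arising without Rarb-null replicate 2. At an unadjusted p under 0.05, limma counted 2351 probe sets in all, and 1147 to 4418 with single arrays left out, the lowest without Rarb-null replicate 2, then 1307 without wild-type replicate 3, and the highest without wild-type replicate 2. Of the 10 genes, 6 had a higher Rarb-null mean, and 4 to 8 did with single arrays left out. The difference then ran from -0.44 to 0.25 log2 for Per1, -0.26 to 0.60 for Per2, -0.0048 to 0.43 for Per3, -0.23 to 0.13 for Cry1, 0.06 to 0.40 for Cry2, -0.056 to 0.020 for Arntl, -0.31 to -0.11 for Clock, -0.018 to 0.20 for Nr1d1, 0.04 to 0.20 for Dbp and 0.04 to 0.34 for Tef. The Arntl difference was 0.025 log2 as the mean of its probe sets, since the dimmer ones had the other sign. Cry1 was removed with the dimmest probe sets. For the 10 pairs of arm genes, 0 passed with single arrays left out. Too few pairings then remain for 1 pair alone to pass after adjustment, so this 0 decides nothing. With single arrays left out, 5 to 8 of the 10 pairs had a negative r. Then r ran from -0.82 to -0.19 for Arntl with Per1, -0.56 to 0.10 with Per2, -0.44 to 0.036 with Per3, -0.074 to 0.57 with Dbp and -0.98 to -0.87 with Nr1d1, and from 0.38 to 0.92 for Clock with Per1, -0.51 to 0.95 with Per2, -0.75 to 0.85 with Per3, -0.77 to -0.44 with Dbp and -0.11 to 0.83 with Nr1d1. The correlation of Arntl with Nr1d1 was -0.41 after a second quantile normalization and -0.14 with the mean of all probe sets, where Arntl and Dbp had r = -0.12. Clock and Per3 had r = 0.083 after median centring, 0.29 as deviations from the genotype means and 0.65 without the 2 arrays farthest from the Clock median, where Clock had r = 0.42 with Dbp and -0.16 with Nr1d1. The causes of these changes were not tested. Replicate numbers are shared between genotypes but not said to mark pairs. Deviations of same-numbered arrays from their group means correlated at -0.20, 0.45 and 0.29 over probe sets, so the numbers were not taken as pairs. With a replicate block, 0 clock probe sets and 0 in all passed, 3418 had an unadjusted p under 0.05, and 6 of 10 genes had a higher Rarb-null mean. In the block, Clock and Per3 had r = 0.41.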

Other observations

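Immediate early genes, which respond to handling and signalling within minutes, gave no call between genotypes. Of 10 measured, 4 were higher and 6 lower on average in Rarb-null stroma (median -0.05 log2), 0 passed the adjusted threshold in limma and 1 had an unadjusted p under 0.05, against 5.3% of all genes. Averaged over the 10, the deviation from the 6-array mean was -0.17, 0.12 and 0.01 log2 on Rarb-null replicates 1 to 3. On wild-type replicates 1 to 3 it was -0.17, 0.06 and 0.15 log2. The genes differed on wild-type replicate 1, the highest array for Per1 and Per2. Egr2 had the widest range of the list, 2.78 log2. It read 8.84, 11.31 and 10.67 on wild-type replicates 1 to 3. Junb was highest on wild-type replicate 1, at 8.06. Egr2 was named after its values were seen, and the part of these genes in the Per1 and Per2 values was not tested. Fosb, a subunit of the AP-1 factor, read 6.36, 7.51 and 7.002 on Rarb-null arrays and 6.35, 6.17 and 6.22 on wild-type arrays. The genotypes did not overlap for 2 of the 10 genes, Fosb and Nr4a1, against 10.6% of all genes, Nr4a1 being named after its values were seen. Egr1 differed by -0.49 log2 and Junb by -0.27 log2.

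Marker lists of other tissues also differed between arrays within a genotype. Skeletal muscle markers (8 of 8 genes) averaged -1.02, -0.66 and 1.17 log2 from their 6-array means on Rarb-null replicates 1 to 3 and -0.51, 2.18 and -1.17 log2 on wild-type replicates 1 to 3. Brown adipocyte markers (10 of 10) averaged -0.17, -1.11 and 1.89 log2 on the Rarb-null arrays and 0.23, -0.94 and 0.10 log2 on the wild-type arrays. Their part in the clock gene values was not tested.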
